A study of Rattus norvegicus with 6 samples.

Results

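RANKL, M-CSF and 8 further regulators of osteoclast differentiation were followed across 2 coatings that caught cells from newborn rat long bone. The 10 genes were chosen by name, for their known roles, though with earlier results of these data known. They were Tnfsf11, Tnfrsf11b, Csf1, Csf1r, Traf6, Mitf, Tfec, Jdp2, Prdm1 and Ppargc1b. Each had 1 row in the deposited table of 29215 rows, of which 14506 genes could be named singly, and all 10 members were measured. Sprague Dawley rats 2 to 5 days old gave the bone cells, which attached in plates coated either with prothrombin of the mouse (PT), the zymogen of thrombin, or with osteopontin from bovine milk (OPN), an integrin-binding protein of bone matrix. The coatings were compared because each holds different multinucleated cells that stain for TRAP, the acid phosphatase of osteoclasts. Affymetrix Rat Gene 1.0 ST arrays measured the RNA on PT in 3 samples (numbered 1, 2 and 4) and on OPN in 3 (numbered 2, 3 and 4). Every array thus holds a mixture of the cell types that stick to 1 protein, and fewer cells of a type and less RNA per cell cannot be told apart. Whether samples of a group were separate animals or cell preparations is not in the labels. The p-values therefore rest on the spread between these samples only, which may be technical.

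Osteoclasts, the cells that dissolve bone, form by fusion of precursors of the monocyte and macrophage lineage. The precursors need M-CSF (encoded by Csf1), which acts through the receptor kinase Csf1r, and RANKL (encoded by Tnfsf11), a cytokine of the TNF family that osteoblasts, osteocytes, stromal cells, hypertrophic chondrocytes and activated T cells make. Osteoprotegerin (encoded by Tnfrsf11b) is a soluble decoy receptor that captures RANKL before it reaches RANK, and the ratio of RANKL to osteoprotegerin is a standard measure of the drive toward osteoclast formation. Inside the precursor, the adaptor TRAF6 carries the signal of RANK to transcription factors, among them those of the MiT family, AP-1 and their repressors. The receptor gene Tnfrsf11a and the master regulator gene Nfatc1 were not analysed here.

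The 2 ligand genes were about 2-fold higher on OPN, while the decoy receptor, the M-CSF receptor and the adaptor gave no call. Of the 10 genes, 4 rose on OPN (Tnfsf11, Csf1, Jdp2 and Prdm1), 1 fell (Tfec) and 5 were not called in limma's test at an adjusted p of 0.05. Over all 14506 genes 8.73% were called, 7.62% higher and 1.12% lower on OPN, and over all rows 5.82%. The arrays of the coatings did not overlap for 7 of the 10 genes, against 30.4% of all genes. Because the 10 were chosen with earlier results known, these shares stand side by side without a test. The median log2 difference (OPN minus PT) was 0.20 over the 10 genes and 0.04 over all genes. Of the 1700 called rows 1475 were higher and 225 lower on OPN, a split that became 1193 and 551 with the array medians made equal and 1360 and 745 with quantile normalisation.

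**Figure D1:**
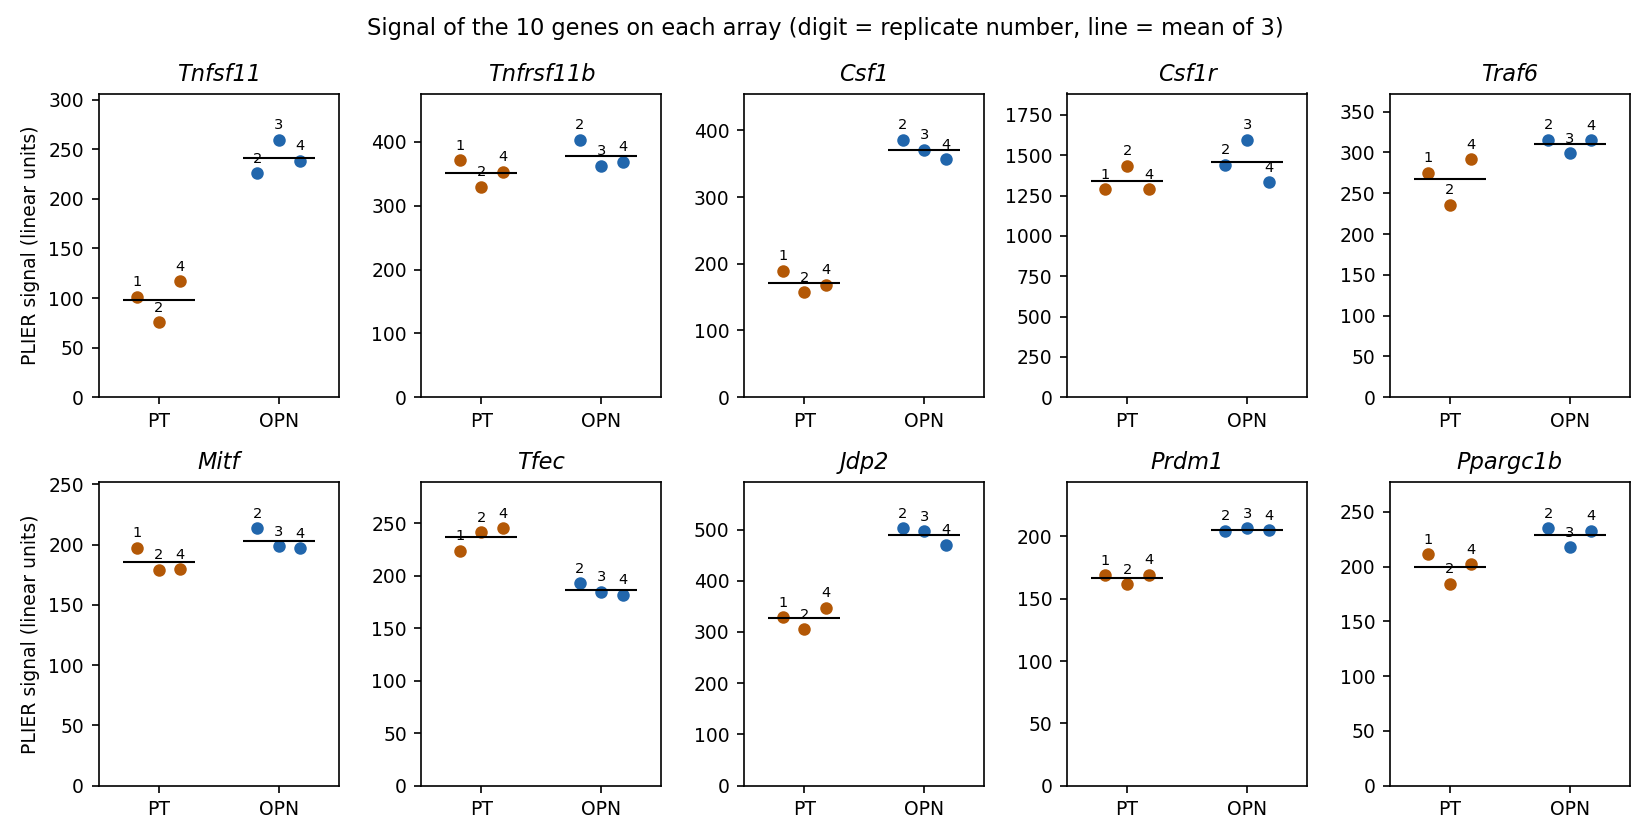
PLIER signal (linear units) of the 10 genes on each of the 6 arrays, in 1 panel per gene with an axis from 0. Points are arrays labelled by replicate number, PT left and OPN right, and the line is the mean of 3 arrays. Tnfsf11, Csf1 and Jdp2 stand clearly apart between the coatings, Tfec is the gene whose OPN arrays all lie below the PT arrays, and the points of Tnfrsf11b, Csf1r and Mitf overlap.

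Tnfsf11, the RANKL gene, had signals of 226, 259.6 and 239 units on the OPN arrays (replicates 2, 3 and 4) and of 102, 75.5 and 117 on the PT arrays (replicates 1, 2 and 4). The groups did not overlap, and the highest PT array lay far below the lowest OPN array. The means were 241 ± 17.1 and 98.0 ± 21.0 units (SD, n = 3), and the fitted difference was 1.19 on the log2 scale (SE 0.13, 95% interval 0.89 to 1.49, adjusted p = 0.000885), a 2.28-fold rise. All fold differences given here are on the scale of log2(signal + 16), which understates the change of dim rows. Tnfsf11 is such a row, with a mean over the arrays above that of 29.3% of genes. How far its PT signal stands above background is unknown. Between the arrays numbered 2 the difference was 1.40, and between those numbered 4 it was 0.94. Without PT replicate 2, the array with the lowest Tnfsf11 signal, it was 1.04, the smallest value with any 1 array left out.

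The bases just before the start of Tnfsf11 are shown because this gene changed most among the 10. They are given for rat build GRCr8 from RefSeq at chr15:60114480-60114729, minus strand, 5′ to 3′ along the gene, ending at the base before the annotated start. Capitals mark a match to TATAAA on the opposite strand, 32 bases before the start, and a match to GAGGAA, the core letters that the myeloid factor PU.1 binds, 138 bases before it.
Tnfsf11: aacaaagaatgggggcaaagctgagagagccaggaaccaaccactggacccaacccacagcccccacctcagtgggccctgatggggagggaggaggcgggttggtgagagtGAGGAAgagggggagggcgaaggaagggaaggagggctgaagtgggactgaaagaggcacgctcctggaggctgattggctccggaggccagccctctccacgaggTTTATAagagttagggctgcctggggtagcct

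Tnfrsf11b, the osteoprotegerin gene, had 403, 363 and 369 units on OPN and 371, 329.5 and 354 on PT. The groups overlapped, since PT replicate 1 lay above OPN replicates 3 and 4. The difference was 0.10 (SE 0.08, adjusted p = 0.584), and its unadjusted 95% interval, from -0.07 to 0.28, does not reach the size of the Tnfsf11 difference. Tnfsf10, the gene of the apoptosis ligand TRAIL, which osteoprotegerin also captures, gave 68.7 ± 9.49 units with OPN against 66.4 ± 13.9 with PT (SD, n = 3) and was not called (log2 difference 0.05, adjusted p = 0.909). The mean signal of Tnfsf10 lay above that of 2.89% of genes, so the row may lie near background and its lack of a call says little. Its sign turned with equal array medians, to -0.0092, and without PT replicate 2 or OPN replicate 3, to -0.068 and -0.043.

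The balance of RANKL to osteoprotegerin was taken per array as log2(Tnfsf11 + 16) minus log2(Tnfrsf11b + 16). Because signals of different probe sets are not on a common scale, its level says nothing of which RNA was more abundant, and its change between coatings is the measure. The balance was -0.79, -0.46 and -0.60 on OPN and -1.72, -1.92 and -1.47 on PT. All 3 OPN arrays lay above all 3 PT arrays. The means were -0.62 ± 0.17 and -1.70 ± 0.22 (SD, n = 3), so the balance was shifted toward RANKL on OPN by 1.09 (SE 0.16), or 2.13-fold. By exact permutation of the arrays, two-sided, p was 0.1, and no smaller p can come from 3 against 3. Tnfsf11 contributed 1.19 to the shift and Tnfrsf11b took away 0.10. Leaving out any 1 array gave shifts from 0.98 to 1.20.

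**Figure D2:**
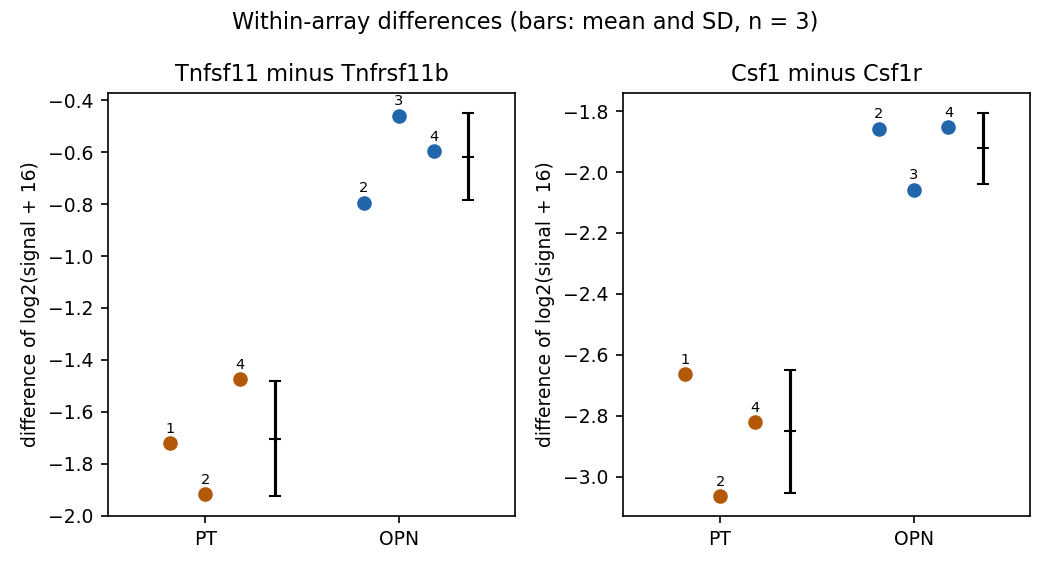
Within-array differences of log2(signal + 16) between a ligand gene and its receptor or decoy gene, for Tnfsf11 minus Tnfrsf11b (left) and Csf1 minus Csf1r (right). Points are arrays labelled by replicate number and the bars give the mean and SD of 3. In both panels every OPN array lies above every PT array.

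Csf1, the M-CSF gene, had 386, 371 and 357 units on OPN and 189.8, 157 and 169 on PT. The groups did not overlap, and the spread within each was small against the gap. The gene rose by 1.05 (SE 0.08, 95% interval 0.86 to 1.24, adjusted p = 0.000114), or 2.07-fold. Between the arrays numbered 2 the difference was 1.21, and between those numbered 4 it was 1.02.

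Csf1r, the receptor through which M-CSF acts on the macrophage lineage, had 1440.3, 1595 and 1331 units on OPN and 1288, 1434 and 1289 on PT. The groups overlapped, with PT replicate 2 above OPN replicate 4. The difference was 0.12 (SE 0.09, unadjusted 95% interval -0.08 to 0.32, adjusted p = 0.573). Il34, the gene of the other Csf1r ligand, gave 135 ± 7.02 units with OPN against 124 ± 6.73 with PT (SD, n = 3) and was not called (0.11, adjusted p = 0.518). This row was dim too, with a mean signal above that of 16.6% of genes. Taken per array as above, Csf1 minus Csf1r averaged -2.85 ± 0.20 with PT and -1.92 ± 0.12 with OPN (SD, n = 3). The shift of 0.93 (SE 0.13) reached p = 0.1 in the exact two-sided permutation test, again the smallest possible.

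Traf6, the ubiquitin ligase adaptor recruited by RANK, had 315, 299 and 315 units on OPN and 275, 236 and 291 on PT. The groups did not overlap, but the gap between PT replicate 4 and OPN replicate 3 was narrow. Its difference of 0.21 (SE 0.09) gave an unadjusted p of 0.0446 and an adjusted p of 0.265, so it was not called. Ppargc1b, which encodes PGC-1beta, a coactivator of mitochondrial biogenesis in osteoclasts, likewise gave no call, with 235, 218 and 233 units on OPN and 211, 184 and 202 on PT. Its difference was 0.18 (SE 0.08) at an unadjusted p of 0.0393 and an adjusted p of 0.248. PT replicate 2 had the lowest signal of the 6 arrays for 8 of the 10 genes, all but Csf1r and Tfec, and also the lowest array median (208 units, against 231 at the highest). Without it the difference of Traf6 was 0.12 and that of Ppargc1b 0.13.

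The MiT family factors, leucine zipper proteins that bind E-box sequences and switch on osteoclast genes with PU.1, did not move together. Mitf had 213, 198 and 197 units on OPN and 197, 179 and 179.5 on PT, with PT replicate 1 inside the OPN range, and was not called (0.12, SE 0.07, adjusted p = 0.462). Tfec, a family member that is largely restricted to myeloid cells, had 193, 185 and 182 units on OPN and 224, 242 and 245 on PT. The groups did not overlap, and Tfec was the only 1 of the 10 genes below 0. It fell by 0.32 on the log2 scale (SE 0.07, adjusted p = 0.0317), a 1.25-fold lower signal. The call was lost without PT replicate 2 or 4 or any 1 of the 3 OPN arrays, with adjusted p between 0.0878 and 0.129, and held without PT replicate 1 (adjusted p = 0.0371). The family member Tfeb (-0.10, adjusted p = 0.656) and the PU.1 gene Spi1 (0.09, adjusted p = 0.674) were not called, and Tfe3 was not analysed here.

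**Figure D3:**
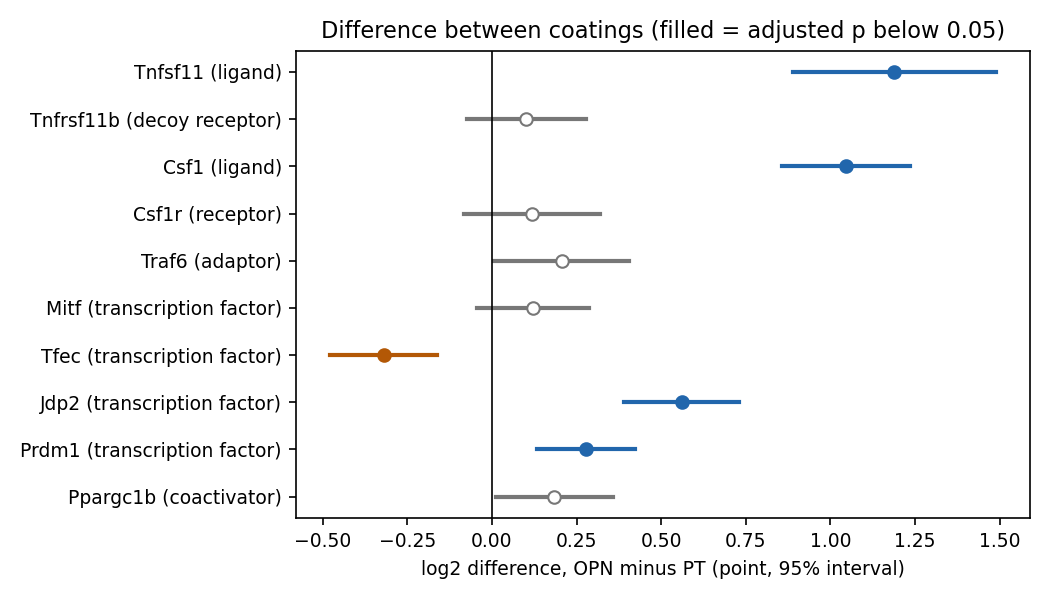
Log2 difference (OPN minus PT) of each of the 10 genes with its unadjusted 95% interval from limma, labelled by role. Filled points have an adjusted p below 0.05. Tnfsf11 (1.19) and Csf1 (1.05) lie farthest to the right, and Tfec (-0.32) is the only gene left of 0.

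Jdp2, a bZIP factor that dimerises with Jun proteins and is needed for osteoclast formation in mice, had 502, 497 and 470.0 units on OPN and 329, 305 and 347 on PT. The groups were far apart, and Jdp2 rose by 0.56 (SE 0.07, adjusted p = 0.00245), or 1.47-fold. Its call held when any 1 array was left out, with adjusted p of at most 0.0175. Prdm1, which encodes Blimp1, a repressor that silences brakes on osteoclast genes such as Irf8 and Bcl6, had 205, 206 and 205 units on OPN and 169, 162 and 169 on PT. Its rise was small and even, 0.28 (SE 0.06, adjusted p = 0.0404), or 1.21-fold. That call was lost without any 1 of the 6 arrays (adjusted p between 0.0773 and 0.154) and with either scaling of the arrays (adjusted p = 0.0930 with equal medians and 0.0646 with quantile normalisation). Among the genes that Blimp1 is known to repress, Irf8 gave 328 ± 9.32 units with OPN against 383 ± 11.9 with PT (SD, n = 3), a difference of -0.22 that was not called (adjusted p = 0.120). Irf8 was called lower with equal array medians (adjusted p = 0.0445), with quantile normalisation (adjusted p = 0.0310) and with dim rows left out (adjusted p = 0.0398). Bcl6 was not called (-0.04, adjusted p = 0.822).

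RefSeq promoters of GRCr8 matched 7 of the 10 genes, and the bases before the start of the 3 called transcription factor genes are shown beside their opposite directions. They lie at chr6:110993341-110993590 (plus strand, Jdp2), chr20:49564089-49564338 (minus strand, Prdm1) and chr4:46146201-46146450 (minus strand, Tfec). Each runs 5′ to 3′ along the gene over the 250 bases before the annotated start, with motif matches in capitals.
Jdp2: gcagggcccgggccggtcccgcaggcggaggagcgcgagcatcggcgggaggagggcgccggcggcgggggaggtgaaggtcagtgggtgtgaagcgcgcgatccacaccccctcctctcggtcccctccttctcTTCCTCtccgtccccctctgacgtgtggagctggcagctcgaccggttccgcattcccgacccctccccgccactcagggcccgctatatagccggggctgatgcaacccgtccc
Prdm1: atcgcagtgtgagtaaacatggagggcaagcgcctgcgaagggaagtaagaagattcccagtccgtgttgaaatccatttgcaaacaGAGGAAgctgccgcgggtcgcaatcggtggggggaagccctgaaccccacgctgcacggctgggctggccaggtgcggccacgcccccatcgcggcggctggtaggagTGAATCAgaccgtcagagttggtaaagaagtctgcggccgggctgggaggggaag
Tfec: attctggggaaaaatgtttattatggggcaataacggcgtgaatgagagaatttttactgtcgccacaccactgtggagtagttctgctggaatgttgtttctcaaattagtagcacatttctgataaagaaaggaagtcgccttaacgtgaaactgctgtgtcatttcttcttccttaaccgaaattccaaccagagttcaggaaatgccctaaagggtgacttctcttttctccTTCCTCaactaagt

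Both strands were searched for 6 motifs, none of which overlapped another in these windows. They were the TATA box letters TATAAA, the AP-1 letters TGANTCA, the E-box letters CACGTG that MiT factors bind, the related M-box core CATGTG, the RUNX letters TGTGGT and the PU.1 letters GAGGAA. The last of these, or TTCCTC as its reverse complement, stood in the windows of Tnfsf11, Jdp2, Prdm1 and Tfec, whose differences run in both directions, and in 23.3% of all 33469 promoters. Csf1r, which was not called, held TTCCTC as well, 229 and 95 bases before its start. The windows of Mitf and Ppargc1b, also not called, held neither form. Prdm1 alone of the 4 held TGANTCA, as TGAATCA, 55 bases before the start. Any base was accepted at N, so the pattern is a loose one for AP-1, and 6.34% of all promoters hold it. Tnfsf11 alone held TATAAA, as 12.9% of all promoters do. None of the 4 windows held the MiT letters CACGTG (5.59% of all promoters) or the related CATGTG (12.1%), nor the RUNX letters TGTGGT (14.5%). The window of Tfec was 40.8% G and C, against 61.6% for Tnfsf11 and for Prdm1, 72.0% for Jdp2 and a median of 51.2% over all promoters. These matches describe letters and are not binding sites.

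Around the 10 genes, 9 lists of pathway partners were counted, none of which holds a member. Of 33 measured genes of the RANK pathway, 4 rose and 29 were not called (12.1% called, against 8.73% of all genes), with a median of 0.07 against 0.04 over all genes. With dim rows left out, and likewise with a mean-variance trend and robust prior, 8 were called, 7 higher and 1 lower. Calls over the rows tested also rose under these settings, from 1700 to 2195 and 2469. The first setting does not test every gene of the list. With an offset of 64, 5 were higher and 1 lower (2113 calls over all rows). Equal array medians gave 3 higher and 1 lower (1744 calls), and quantile normalisation 4 higher and 1 lower (2105 calls). With an offset of 1, and without PT replicate 2 or any 1 OPN array, 3 were called, all higher. Without PT replicate 4, 5 were called, all higher. Lgr4, a receptor that in mice binds RANKL in competition with RANK, gave 374 ± 27.9 units with OPN against 146 ± 19.8 with PT (SD, n = 3) and rose by 1.27 (adjusted p = 0.000137). The ubiquitin ligase gene Cblb (0.47), the kinase gene Src of the osteoclast's resorbing membrane (0.47) and the NF-kB inhibitor gene Nfkbia (0.55) also rose. Nfkbia had an adjusted p of 0.0318 and lost its call without PT replicate 2 or any 1 of the OPN arrays (adjusted p up to 0.132), with equal array medians (0.0725) and with an offset of 1 (0.0553). Of 14 measured genes of the ITAM pathway, which costimulates RANK through immunoreceptor adaptors, 1 was called (7.14%, against 8.73% of all genes). This was the kinase gene Fyn, which rose (0.90, adjusted p = 0.000184), and 13 were not called. In that list 2 genes were called without PT replicate 1, 1 in each direction, and 2 without PT replicate 4, both higher. With an offset of 64, 3 were called, 1 higher and 2 lower, and with dim rows left out or the trend and robust prior 4 were called, 2 in each direction. With either scaling of the arrays 2 were called, 1 in each direction.

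Of 29 measured genes of M-CSF signalling and related cytokine receptors, 5 rose and 24 were not called (median 0.10). The share called was 17.2%, against 8.73% of all genes. The largest was Kitlg (1.38, adjusted p = 9.43e-05), the gene of stem cell factor, which stromal cells make and which also stands in the stromal marker list. With it rose the transcription factor genes Ets1 (0.65) and Stat3 (0.46), the adaptor gene Shc1 (0.37) and the cyclin D1 gene Ccnd1 (0.31). Only 3 of this list were called without PT replicate 2, PT replicate 4, OPN replicate 3 or OPN replicate 4. Ccnd1 lost its call without any 1 of the 6 arrays (adjusted p between 0.0593 and 0.188), with an offset of 1 (0.0542) and with either scaling (0.0677 and 0.0530), and Shc1 without those same 4 (adjusted p up to 0.0866).

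Of 14 measured relatives and reported targets of MITF and PU.1, 6 rose, 1 fell and 7 were not called (median 0.18). The share called was 50%, against 8.73% of all genes. The cathepsin gene Ctsk (4.35), the acid phosphatase gene Acp5 (2.46) and the proton pump genes Atp6v0d2 (2.42) and Tcirg1 (0.73) led those that rose. Gpnmb (-0.48, adjusted p = 0.00456), a membrane glycoprotein gene of macrophages and osteoclasts, fell, as Tfec did. Of the 7 called genes, 5 are also osteoclast markers here, so this list is not independent of that one.

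The AP-1 genes and relatives listed around Jdp2 were split between those far above 0 and those near it. Whether each pairs with Jdp2 was not tested. Of 14 measured, 5 rose and 9 were not called (35.7% called, against 8.73% of all genes, median 0.13). Fos rose by 1.74, from 541 ± 86.8 units with PT to 1835 ± 199.6 with OPN (SD, n = 3), and Atf3 (1.70), Jun (1.01), Junb (0.80) and Fosl2 (0.57) rose too, all with adjusted p of at most 0.0011. Of these 5, all kept their calls when any 1 array was left out.

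Of 17 measured genes listed as repressors or brakes of osteoclast genes, 5 rose and 12 were not called (median 0.18). The share called was 29.4%, against 8.73% of all genes. The list was drawn up by name, and whether each gene restrains osteoclasts in these cells was not tested. Socs3, a feedback inhibitor of cytokine receptors, rose by 2.10 and Zfp36, which destabilises cytokine mRNAs, by 1.19 (adjusted p = 8.62e-06 and 3.31e-05). The transcriptional repressor genes Id3 (0.49), Hes1 (0.47) and Tle1 (0.38) rose less, and this list had 3 calls without OPN replicate 2 or OPN replicate 3. Hes1 lost its call without either of those arrays and Tle1 without each array except PT replicate 1 (adjusted p up to 0.0631 and 0.145). Tle1 also missed the threshold with equal array medians (adjusted p = 0.0581) and with the trend and robust prior (adjusted p = 0.0501). Of 17 measured partners of PGC-1beta and genes of mitochondrial biogenesis, limma called 0, while 4 had an unadjusted p below 0.05, 2 in each direction. In this list 1 gene was called, lower, with an offset of 64, equal array medians, dim rows left out or the trend and robust prior. Esrra, the nuclear receptor gene that works with PGC-1beta in osteoclasts, was at 0.10 (adjusted p = 0.563).

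**Figure D4:**
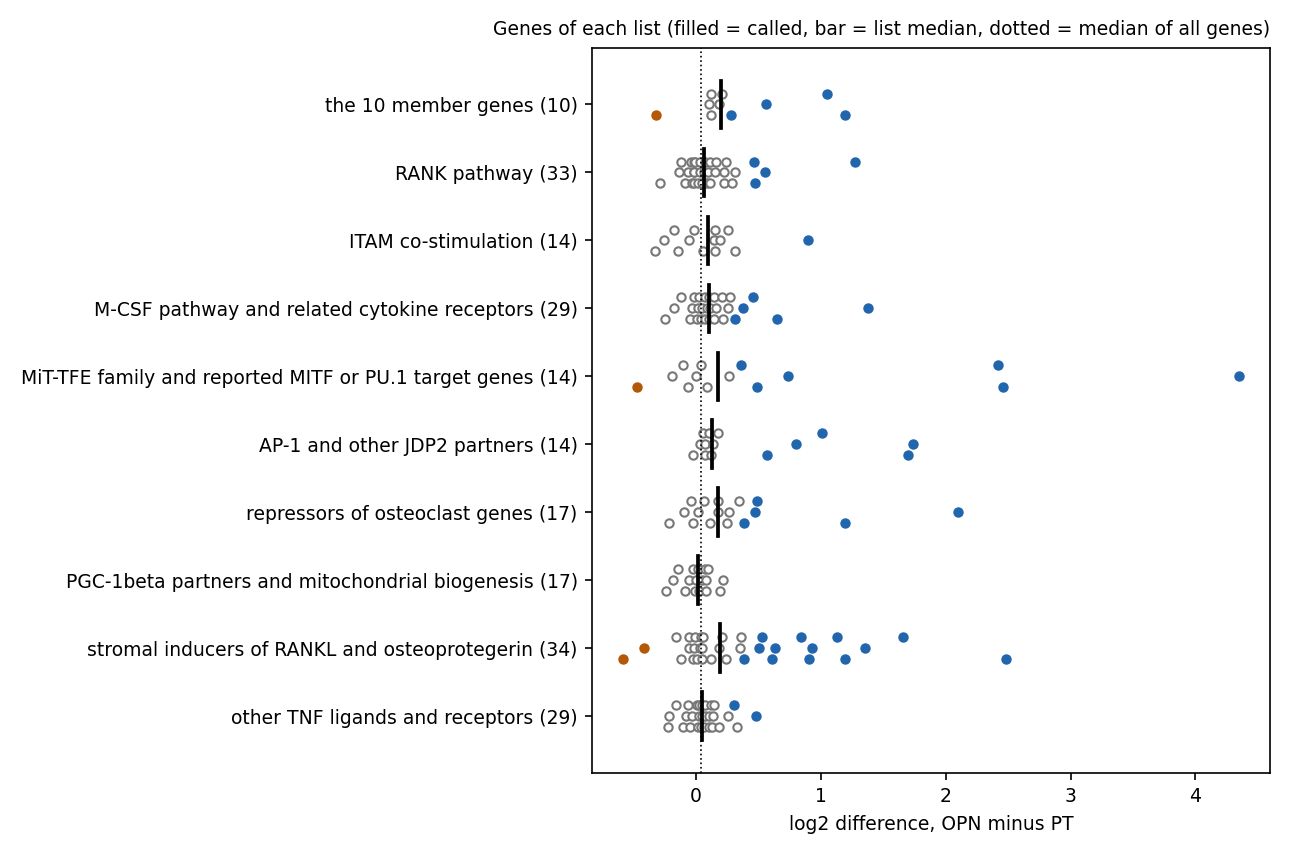
Log2 difference (OPN minus PT) of every measured gene of the 9 pathway lists and of the 10 member genes (top line), with the number measured in brackets. Filled points are called (blue higher, brown lower), bars are list medians and the dotted line is the median of all genes (0.04). The stromal inducer list has the most filled points of the 9 (15 of 34), the MITF and PU.1 target list has 7 of 14, reaching 4.35, and the PGC-1beta list has 0 of 17.

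The list of inducers of RANKL or osteoprotegerin that act in or on stromal cells had the most calls of the 9. Of 34 measured genes, 13 were higher and 2 lower (44.1% called, against 8.73% of all genes, median 0.20). The list also holds cytokines that other cells make. It does not part genes that raise RANKL from those that raise osteoprotegerin, so its count gives no direction for either. Pth1r, the receptor through which parathyroid hormone raises RANKL in osteoblast lineage cells, gave 803 ± 71.3 units with OPN against 131 ± 19.6 with PT (SD, n = 3) and rose by 2.49. The cytokine receptor genes Lifr (1.66) and Il6st (1.35) and the beta-catenin gene Ctnnb1 (1.19) followed, each with an adjusted p of at most 0.000109. The 2 that fell were the interleukin-1 genes Il1a (-0.59, adjusted p = 0.00144) and Il1b (-0.42, adjusted p = 0.0236), products of activated macrophages. Il1b kept its call only when the array left out was PT replicate 1, and otherwise reached an adjusted p of up to 0.0887.

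Among 29 other measured TNF ligands and receptors, 2 receptor genes rose, Tnfrsf19 (0.48, adjusted p = 0.00277) and Tnfrsf1a (0.30, adjusted p = 0.0406). The other 27 genes were not called (list median 0.05). The share called was 6.90%, below the 8.73% of all genes. The list had 4 calls with the trend and robust prior, 3 higher and 1 lower, and 3 with quantile normalisation, 1 higher and 2 lower. Over all rows these settings gave 2469 and 2105 calls, against 1700 in the main fit. Tnfrsf1a lost its call without any 1 array (adjusted p between 0.0658 and 0.173) and with either scaling (adjusted p = 0.0844 with equal medians and 0.0608 with quantile normalisation). Of the TNF ligand genes measured, Tnfsf11 was thus the 1 with a call, and its difference of 1.19 lay above the highest difference of the list, 0.48.

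Of the cell types known to make RANKL, osteoblast and stromal markers were called in most cases, and T cell and chondrocyte markers in few. Of 14 measured osteoblast and osteocyte markers 12 rose (median 2.00), and their summed signal was 57608 to 64120 units on OPN and 11915 to 12965 on PT. Of 13 measured stromal fibroblast markers 11 rose and 1 fell (median 1.47), with sums of 9909 to 10744 on OPN and 4094 to 4110 on PT. The rises of Tnfsf11 (1.19) and Csf1 (1.05) ran in the direction of both lists, while Tnfrsf11b (0.10), which the same lineages make, was not called. T and B cell markers had sums of 4644 to 4746 on OPN and 4488 to 4811 on PT, ranges that overlap, with a median of 0.04, and 1 of 13, Cd4 (-0.41), was called, lower. Without PT replicate 4, 2 of the 13 were called, 1 in each direction. Chondrocyte markers had 2 of 11 higher (median 0.13), and 1 when any of PT replicates 2 and 4 and OPN replicates 2 and 3 was left out. Unlike the T and B cell sums, the chondrocyte sums did not overlap, at 3694 to 3978 on OPN and 2972 to 3230 on PT. In limma's test 6 of the 11 had an unadjusted p below 0.05, 5 higher and 1 lower. The part of each cell type in the differences of the 10 genes was not tested.

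**Figure D5:**
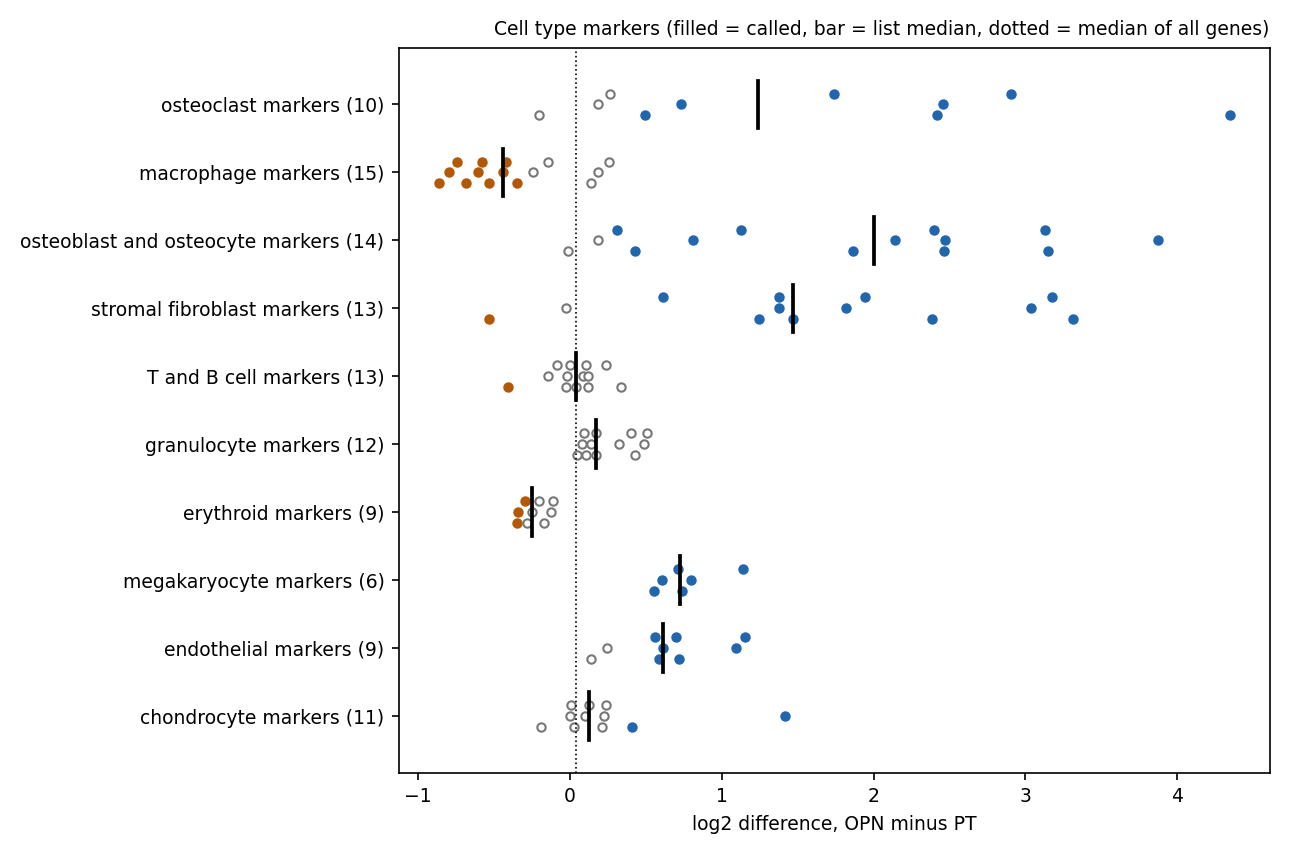
Log2 difference (OPN minus PT) of every measured gene of the 10 cell type marker lists, with the number measured in brackets. Filled points are called (blue higher, brown lower), bars are list medians and the dotted line is the median of all genes (0.04). Osteoblast, stromal and osteoclast markers lie to the right, macrophage markers mostly to the left, and T and B cell markers around the dotted line.

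On the receiving side, 7 of 10 measured osteoclast markers rose (median 1.24, sums of 29370 to 32916 units on OPN and 11633 to 13956 on PT) and 10 of 15 macrophage markers fell (median -0.44, sums of 11929 to 12800 on OPN and 15665 to 16878 on PT). Csf1r (0.12), which both lineages carry, lay between them, and Tfec (-0.32) lay on the side of the macrophage markers. Erythroid markers had 3 of 9 lower (median -0.25), with 7 of the 9 at an unadjusted p below 0.05. Their differences ran from -0.35 to -0.11. Limma called 0 of them without PT replicate 2, PT replicate 4 or any 1 OPN array, and 2 with an offset of 1. It called 4, all lower, with an offset of 64, either scaling, dim rows left out or the trend and robust prior. All 6 megakaryocyte markers measured (median 0.73) and 7 of 9 endothelial markers (median 0.61) rose. Granulocyte markers had 0 of 12 called by limma (4 with an unadjusted p below 0.05, median 0.17), and 5 were higher without PT replicate 4. No marker of any list was at 0 on any array, but background signal is unknown, so this does not show that each cell type was present.

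For the 2 genes of the RANKL balance the genes with the most similar course over the 6 arrays were sought, by the Pearson correlation of log2(signal + 16). For Tnfsf11 they were the zinc transporter gene Slc30a5 (r = 0.999), Tspyl1 (r = 0.999) and the tetraspanin gene Tspan11 (r = 0.998), with differences of 0.51, 0.47 and 0.20. For Tnfrsf11b they were the ectonucleotidase gene Nt5e (r = 0.990), the small GTPase gene Mras (r = 0.990) and Fam180a (r = 0.986). With 6 arrays in 2 separate groups such values are common, since 1633 genes had an r above 0.9 with Tnfsf11 and 264 with Tnfrsf11b.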

How the data were processed

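Each deposited value is the intensity of 1 probe set on 1 array, a linear signal summarised with PLIER in Affymetrix Expression Console, per the submitters' processing notes. Their versions, any background correction and any scaling between arrays are unstated. Per the labels' protocols, 300 ng of RNA was labelled without removal of ribosomal RNA. Correlations across rows were at least 0.988 within a coating and at most 0.979 between coatings. The number of arrays limits the precision.

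Rows were named through the platform annotation (15310 of 29215 rows with 1 symbol, 323 with several, 13582 with none), and Entrez identifiers of 15279 matched the GRCr8 table, which changed 0 symbols. A gene with several rows took the row of highest mean, and each of the 10 members had 1. Values were log2(intensity + 16). With limma 3.58.1 (R 4.3.3), lmFit and eBayes were run on all rows, p-values were adjusted over all of them (Benjamini-Hochberg), and called means an adjusted p below 0.05. The fit was tested on simulated data. Balances were compared by exact two-sided permutation. The 19 lists held 347 genes, 300 of them measured, and were described by counts without a set test. Named are the members, up to 5 called genes per pathway list (otherwise the 4 with the smallest p and those in the minority direction), fixed partner genes and the 3 genes most like Tnfsf11 and Tnfrsf11b. Members and lists were chosen with earlier results of these data known. Alternatives changed the offset, scaling, variance model, filter, replicate block and arrays.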

Additional observations from a re-analysis of the deposited data

How the results depend on the processing

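The calls of Tnfsf11 and Csf1 and the lack of a call for Tnfrsf11b, Csf1r, Traf6, Mitf and Ppargc1b held under every alternative that could be fitted, with differences from 0.92 to 1.31 for Tnfsf11 and from 0.89 to 1.11 for Csf1. The shift of the Tnfsf11 to Tnfrsf11b balance ranged from 0.83 with an offset of 64 to 1.21 with an offset of 1, and that of Csf1 to Csf1r from 0.77 to 1.09. Prdm1 missed the threshold with equal array medians (0.21) and quantile normalisation (0.22), and leaving out 1 array gave Prdm1 0.26 to 0.29 and Tfec -0.36 to -0.30. Of the 10 genes 3 to 4 were called with 1 array left out, and 1023 to 1486 of all rows. With rows below the median signal left out, 2 of the 10 genes were called, since Tnfsf11, Mitf, Tfec, Prdm1 and Ppargc1b were removed. Replicates 2 and 4 exist for both coatings, without a label that ties them to 1 preparation. Deviations of the arrays numbered alike correlated at -0.08 and 0.07. Under a replicate block 666 rows, 58 list genes (97 without the block) and 2 of the 10 genes (Tnfsf11 and Csf1) were called. Jdp2 (0.56, adjusted p = 0.0813), Tfec (-0.35, adjusted p = 0.235) and Prdm1 (0.28, adjusted p = 0.352) were not. Of the 33 named pathway genes that were called, 26 kept the call whichever array was left out and 17 under the block. The RANK list had 1 call under the block, with Cblb (adjusted p = 0.108) and Src (adjusted p = 0.129) among those lost. Counts per list moved by over 1.5 times in 50 comparisons and not in 197. Averaging the rows of a gene was not run, since each of the 10 genes has 1 row.

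Tnfsf10, which was not called, turned to -0.0092 with equal array medians, to -0.068 without PT replicate 2 and to -0.043 without OPN replicate 3, and its highest value with 1 array left out was 0.17 (without PT replicate 1).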
